A study of Homo sapiens with 6 samples.

Results

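The genes described here encode growth factors and the receptors they act on, most of them receptor tyrosine kinases. They were given as 55 symbols, by name and with no rule on measured values, though the list was drawn up with earlier results of these data known, and were matched to the array through the RefSeq accession in each probe set's identifier. The match found 42 of the 55 genes, with 51 probe sets, among the 927 named genes and 1259 probe sets of the whole table. The members TGFA, EREG, HBEGF, ERBB2, KDR, FLT4, PGF, INSR, KIT, CSF1, CSF3, NTRK2 and NTRK3 had no matched probe set and were not analysed here.

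Expression was measured on 6 Affymetrix arrays of RKO, an established human colon carcinoma line. RKO C2, the starting material, was a single clone, and RKO C2 F3 (F3 below) was obtained from it by fluorescence-activated sorting of cells with low u-PAR, the urokinase receptor. The labels name no treatment or engineered allele for either; they call F3 a clonal population in the sample titles and a population in the design text. Each had 3 arrays, numbered 1 to 3, and the stated aim was to find an enzyme of glycosylation that is deficient and leaves u-PAR immature. Because C2 was 1 clone and F3 descends from it, the values describe this clone and its derivative rather than RKO cells in general. No label states that replicate arrays stem from different cultures, and the p-values therefore reflect only how far these 6 arrays scatter, possibly for technical reasons.

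Growth factors are secreted or membrane-bound proteins that bind the outer part of a receptor on the same or a neighbouring cell. Receptor tyrosine kinases then pair up, phosphorylate each other and signal through the RAS-MAP kinase and PI3 kinase routes to division, survival and movement. Their outer parts are N-glycoproteins, and fibroblast growth factors also need heparan sulfate chains to bind their receptors well. In colon epithelium, signalling of the EGF family, HGF through MET, and IGF2 through IGF1R are among the best known routes of growth control.

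Array medians lay between log2 5.48 and 5.51, and the spread between arrays of a population was a median SD of 0.097 over the 51 member probe sets, against 0.083 over all 1259. Only 2 of 11 epithelial markers on the list were measured, MUC2 at a mean log2 value of 5.13 and LGALS4 at 4.71. Both lay below 5.50, the median of all probe sets. The colon origin is taken from the labels and was not tested with these genes. The 5 fibroblast markers measured, of 9 on the list, include the members PDGFRA and PDGFRB and averaged 3.10 to 3.16 on the C2 arrays and 3.05 to 3.14 on the F3 arrays. The 11 leukocyte probe sets averaged 4.18 to 4.20 in C2 and 4.18 to 4.23 in F3, and the 4 endothelial ones 4.66 to 4.69 and 4.62 to 4.66. No probe set of these lists passed limma's test in either direction.

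The members ranged from a mean log2 value of 2.43 for FGF7 to 10.8 for the highest HGF probe set. A probe set's value depends on how well its probes bind as well as on the amount of RNA, and the table carries no detection call. Levels of different genes are therefore not compared as amounts, and a low value is not read as absence. Each level is given with the quartile group of the table in which it lies, with boundaries at log2 3.80, 5.50 and 7.77. These are quartiles of the table's 1259 probe sets, which include 927 named genes, and are not ranks among all human genes. Where a gene had several probe sets, its highest one gave its quartile. Of the 28 ligand genes, 12 lay in the lowest quartile and 4 in the highest, and 8 of the 14 receptor genes lay in the third quartile and 1, MET, in the highest.

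**Figure D1:**
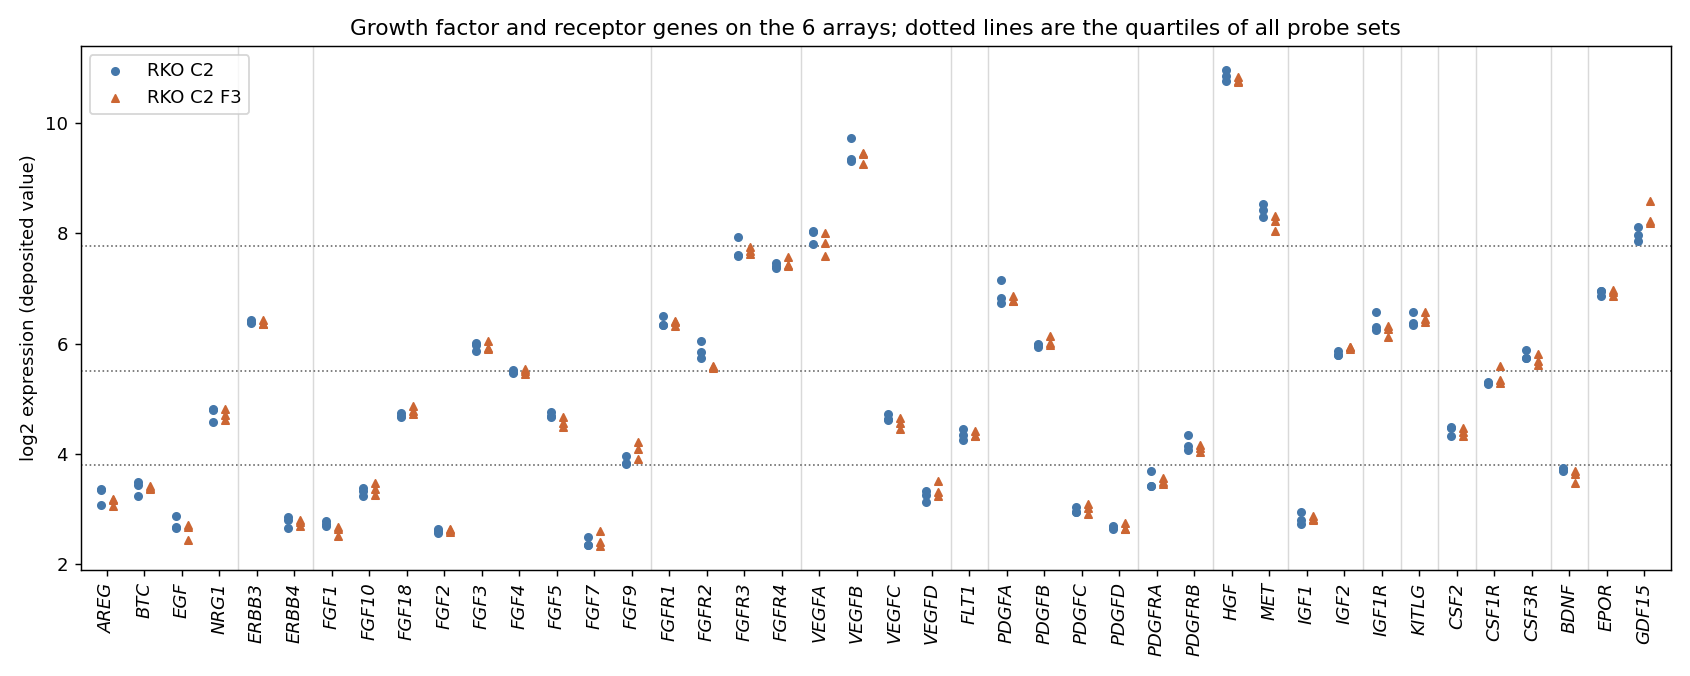
Deposited log2 expression (vertical axis) of the 42 genes, each by its highest probe set, on the 3 C2 arrays (circles) and the 3 F3 arrays (triangles), grouped by family. Dotted lines are the quartiles of all 1259 probe sets at 3.80, 5.50 and 7.77, and HGF, VEGFB, MET, GDF15 and VEGFA lie above the uppermost of them.

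HGF and MET were the only ligand and receptor matched to each other here that both lay in the highest quartile. HGF, hepatocyte growth factor, binds MET and drives the scattering and growth of epithelial cells; it is known mainly as a product of mesenchymal cells. Its highest probe set read log2 10.77, 10.96 and 10.86 on the C2 arrays 1 to 3 and 10.75, 10.84 and 10.76 on the F3 arrays. The arrays of the populations overlapped. The other 3 HGF probe sets averaged 9.43, 9.27 and 7.57 over the 6 arrays, the last of them in the third quartile. The identifiers of the HGF probe sets do not all carry the same RefSeq transcript. Which transcripts each of them measures was not tested. Of the 5 fibroblast markers measured, DCN, LUM, VCAN and PDGFRA averaged 2.39, 2.30, 3.22 and 3.51 in the lowest quartile and PDGFRB 4.15 in the second.

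MET read 8.29, 8.43 and 8.53 in C2 and 8.04, 8.32 and 8.22 in F3. GDF15, a stress-induced member of the TGF-beta superfamily whose known receptor, GFRAL, was not analysed here, read 8.12, 7.86 and 7.96 in C2 and 8.19, 8.59 and 8.22 in F3. The lowest F3 value of GDF15 lay above the highest C2 value, whereas for MET 1 F3 value lay within the C2 range. The sequences of HGF and MET are given for these levels and that of GDF15 for its change, a choice made after the values had been seen.

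The 250 bases before the RefSeq start of the 3 genes (GRCh38.p14) are shown because these are the ligand and receptor pair in the highest quartile and the member with the most positive change. Each is written 5′ to 3′ on the gene's own strand, and capitals mark matches on either strand to the TATA box core TATAAA, to the GC box core GGGCGG or to the CCAAT box core CCAAT. Each was searched in the window as printed and in its reverse complement. The windows are chr7:81770048-81770297 on the minus strand for HGF, chr7:116671946-116672195 on the plus strand for MET and chr19:18385908-18386157 on the plus strand for GDF15.
HGF: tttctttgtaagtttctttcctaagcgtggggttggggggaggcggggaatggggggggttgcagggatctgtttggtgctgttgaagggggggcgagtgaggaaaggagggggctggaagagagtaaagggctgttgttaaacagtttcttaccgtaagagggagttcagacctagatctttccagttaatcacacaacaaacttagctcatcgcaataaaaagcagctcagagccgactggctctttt
MET: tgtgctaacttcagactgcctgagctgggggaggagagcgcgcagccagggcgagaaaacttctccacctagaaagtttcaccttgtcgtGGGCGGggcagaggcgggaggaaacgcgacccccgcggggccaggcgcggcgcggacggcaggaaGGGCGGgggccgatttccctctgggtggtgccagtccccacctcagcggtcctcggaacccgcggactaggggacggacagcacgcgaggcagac
GDF15: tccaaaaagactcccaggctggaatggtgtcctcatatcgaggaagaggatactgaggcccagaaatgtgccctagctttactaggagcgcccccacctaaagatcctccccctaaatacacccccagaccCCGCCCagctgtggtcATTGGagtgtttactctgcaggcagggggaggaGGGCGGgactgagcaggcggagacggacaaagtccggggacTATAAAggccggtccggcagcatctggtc

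The MET window held 2 matches to GGGCGG and 24 CpG dinucleotides, with 68.4% G and C. The GDF15 window held 2 matches to GGGCGG, 1 to TATAAA and 1 to CCAAT, with 9 CpG. The HGF window held none of the 3 motifs and 6 CpG. Of 35116 promoter windows of this length, 10.7% held TATAAA, 42.6% held GGGCGG and 32.0% held CCAAT, against 11.3%, 56.6% and 28.3% of the 53 windows of the 33 member genes that the table of promoter sequences holds. Counted over windows, the median number of CpG was 11 for all 35116 and 9 for the 53 of the members. By gene, with several windows of a gene entered by their median, it was 11 for the 13 member genes in the lowest quartile group. It was 15 for 7 in the second, 19 for 9 in the third and 16.5 for 4 in the highest, with ranges that overlapped throughout. A match is only a run of letters, and no binding or methylation was measured.

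Other ligands and their receptors are given in the same way. VEGFA and VEGFB, which act on blood vessel cells, lay in the highest quartile at mean log2 values of 7.88 and 9.42, and FLT1, a receptor for both, lay in the second at 4.35. PDGFA and PDGFB lay in the third quartile at 6.85 and 6.01, while PDGFRA was at 3.51 in the lowest and PDGFRB at 4.15 in the second. IGF2 and IGF1R were both in the third quartile, at 5.87 and 6.31, and IGF1 was at 2.83 in the lowest.

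In the EGF family, EGF, AREG and BTC were in the lowest quartile at 2.68, 3.20 and 3.39, and NRG1, the ligand of ERBB3 and ERBB4, was in the second at 4.72 by the highest of its 3 probe sets. ERBB3, which has little kinase activity of its own and signals with a partner, was in the third quartile at 6.39, and ERBB4 in the lowest at 2.77. The gene EGFR was not among the 55 given symbols and was not analysed here. All 4 FGF receptors were in the third quartile, with FGFR1 at 6.38, FGFR2 at 5.73, FGFR3 at 7.69 and FGFR4 at 7.44. Of the 9 FGF ligands, FGF3 was in the third quartile at 5.95, FGF4, FGF5, FGF9 and FGF18 in the second, and FGF1, FGF2, FGF7 and FGF10 in the lowest. KITLG, the ligand of KIT, was in the third quartile at 6.45, CSF2 in the second at 4.42 and the neurotrophin BDNF in the lowest at 3.66.

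F3 was then compared with C2 over all 6 arrays in limma, with p-values adjusted over all 1259 probe sets. None of the 51 member probe sets passed an adjusted p of 0.05. In the table as a whole 1 probe set passed, or 0.0794%. The smallest adjusted p of a member in limma was 0.73, and at an unadjusted p under 0.05 limma gave 4 members (FGFR2, GDF15, MET and FGF9), or 7.84%, against 5.40% of all probe sets. When the replicate number was added as a block, members called were again 0, against 2 probe sets or 0.159% of the table, and 5 members (the same 4 and ERBB3) had an unadjusted p under 0.05, against 8.02% of all. An ordinary two-sample test also called 0 members, against 0.00% of the table, with 2 of 51 (FGFR2 and IGF2) at an unadjusted p under 0.05, against 5.32% of all.

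The log2 changes of the members, F3 minus C2, ran from -0.30 for FGFR2 to 0.35 for GDF15. Their median was -0.014, against -0.0064 over all probe sets, with 30 negative and 21 positive, against 688 and 571 in the table. After median centring 25 member probe sets were negative and 26 positive, against 557 and 702 in the table. The median of the members was then 0.0017, so its sign turned. The median absolute change was 0.078 for the members and 0.047 for the table. The 95% interval of the change excluded a difference of 1.5-fold in either direction for 50 of the 51 member probe sets. The same held for 1246 of all 1259 probe sets. It held for all 315 in the lowest quartile, where 16 of the member probe sets lay. The exception among the members was GDF15, whose interval reached 0.61, just past the log2 of 1.5, which is 0.585.

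**Figure D2:**
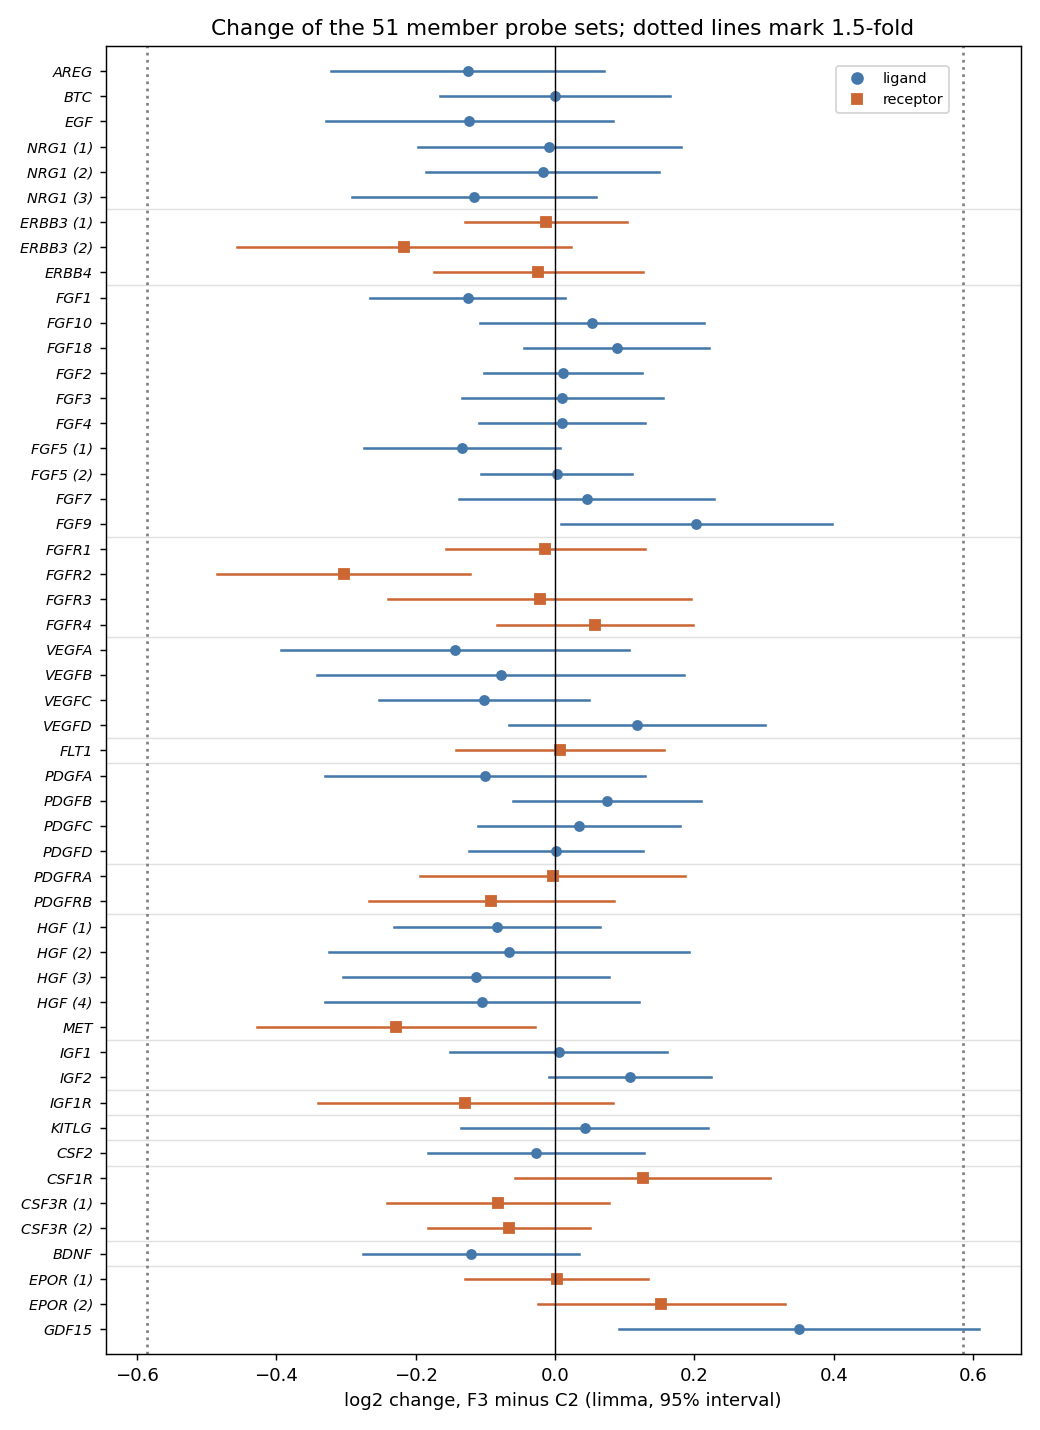
Log2 change, F3 minus C2 (horizontal axis), of the 51 member probe sets with limma's 95% interval, circles for ligands and squares for receptors; bracketed numbers order the probe sets of 1 gene from highest to lowest level. Intervals of FGFR2, MET, FGF9 and GDF15 do not include 0, and only that of GDF15 crosses a dotted line, which marks 1.5-fold.

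For 7 member probe sets, or 13.7%, the 3 arrays of 1 population lay wholly above or below those of the other, against 10.3% of the table. F3 was the higher for GDF15 and IGF2 and the lower for FGFR2, FGF1, BDNF, the upper FGF5 probe set and the lower CSF3R probe set. With single arrays left out the member count ran from 8 to 17, or 15.7% to 33.3%. That over the table ran from 221 to 265, or 17.6% to 21.0%. The member count was 17 without C2 replicate 1, 15 without C2 replicate 3, 14 without F3 replicate 2 and 11 without F3 replicate 3. It was 9 without C2 replicate 2 and 8 without F3 replicate 1. These shares, 17.6% and 15.7%, lay below the table's 19.2% and 20.3%. The shares of the settings named before them, 33.3%, 29.4%, 27.5% and 21.6%, lay above the table's 20.9%, 19.8%, 17.6% and 21.0%. In the 3 pairs of same-numbered arrays, 19 member probe sets, or 37.3%, differed in the same direction each time, 12 lower and 7 higher in F3, against 29.9% of the table.

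FGFR2, a receptor whose splice forms serve epithelial and mesenchymal cells, had the smallest p of the members. Its probe set read 5.85, 6.06 and 5.74 in C2 and 5.57, 5.59 and 5.59 in F3. The F3 arrays were all lower and close together, with an SD of 0.013 against 0.16 in C2. The log2 change was -0.30 (SE 0.079, n = 3 in each population), a size of 1.23-fold; limma gave an adjusted p of 0.73, or 0.47 with the block. It ranked 7 from the most negative of the 1259 changes and ran from -0.37 to -0.22 over single arrays left out. A lower value in fewer cells and a lower value in every cell cannot be told apart in such bulk RNA.

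The other 3 FGF receptors had intervals that included 0. FGFR4 read 7.37, 7.46 and 7.41 in C2 and 7.41, 7.58 and 7.43 in F3, a change of 0.057 (95% interval -0.083 to 0.20), which was 0.13 after quantile normalization, with an unadjusted limma p under 0.05, and 0.0058 without F3 replicate 2. FGFR3 read 7.58, 7.93 and 7.60 in C2 and 7.62, 7.67 and 7.75 in F3, a change of -0.022 (-0.24 to 0.20) that was 0.091 without C2 replicate 2, the highest array. FGFR1 read 6.34, 6.50 and 6.33 in C2 and 6.32, 6.40 and 6.41 in F3, a change of -0.014 (-0.16 to 0.13). The arrays overlapped for all 3 receptors, and the signs for FGFR1 and FGFR3 turned under quantile normalization and for FGFR1 also after median centring.

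Of the 10 probe sets of FGF ligands, 8 had positive and 2 negative changes, none past the test. These counts were 8 and 2 after median centring and 7 and 3 after quantile normalization. The table held 571 positive and 688 negative changes, 702 and 557 after median centring, and 654 and 605 after quantile normalization. FGF9, which acts mainly on FGFR3 and the mesenchymal forms of other FGF receptors, read 3.96, 3.81 and 3.84 in C2 and 4.23, 3.91 and 4.08 in F3. Its lowest F3 value lay below the highest C2 value, although each F3 array exceeded the C2 array of its number, by 0.26, 0.10 and 0.25. The change was 0.20 (SE 0.085, n = 3 in each population, limma adjusted p = 0.89), and 0.13 without F3 replicate 1. With the block limma gave an adjusted p of 0.47.

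FGF1, which binds all FGF receptors, read 2.70, 2.79 and 2.73 in C2 and 2.68, 2.65 and 2.52 in F3, a change of -0.12 at a level in the lowest quartile. The change was -0.076 without F3 replicate 3. The upper FGF5 probe set, whose identifier carries the suffix Affymetrix uses for possible cross-hybridisation, read 4.67, 4.70 and 4.76 in C2 and 4.56, 4.67 and 4.50 in F3. Its change was -0.13, with the nearest values of the populations equal to 2 decimals, and the other FGF5 probe set was at 0.0025 (95% interval -0.11 to 0.11), so the gene's probe sets disagreed. The remaining FGF ligands lay between 0.010 for FGF4 and 0.089 for FGF18.

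**Figure D3:**
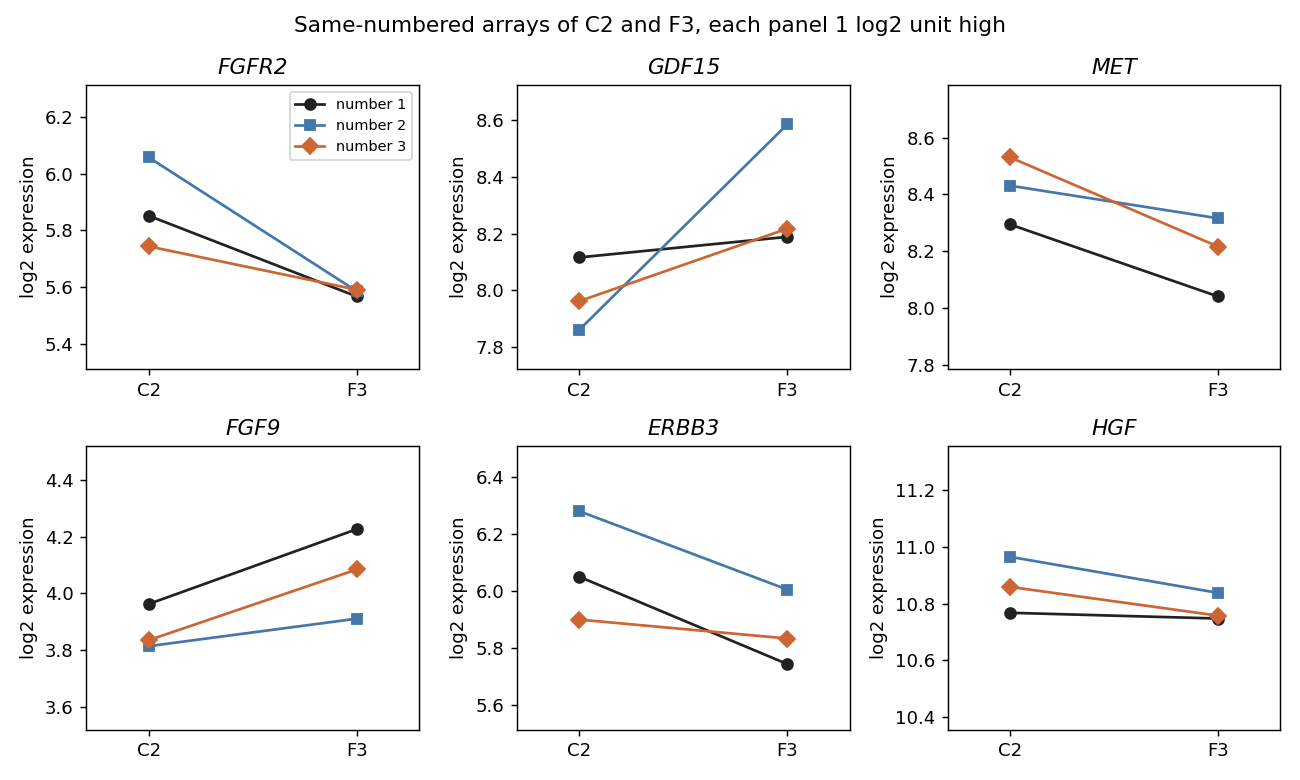
Deposited log2 expression (vertical axes, each spanning 1 unit) of 6 genes in C2 and F3, with lines joining arrays of the same number; ERBB3 is shown by the probe set with the smaller p and HGF by its highest. All 3 lines slope down for FGFR2, MET, ERBB3 and HGF and up for GDF15 and FGF9, and the second F3 array of GDF15 stands above the other two.

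MET, the HGF receptor and a well-known driver of invasive growth, had a change of -0.23 (SE 0.087, n = 3 in each population), a size of 1.17-fold, from the values given above. F3 was lower in each same-numbered pair, by -0.25, -0.11 and -0.31 on the log2 scale. The limma adjusted p was 0.84, and 0.47 with the block, which reduced the SE to 0.057. All 4 HGF probe sets also had negative changes, of -0.083 (95% interval -0.23 to 0.065) for the highest and -0.066, -0.11 and -0.10 for the others in order of level. They measure 1 gene and are not separate evidence. The highest was at -0.032 without C2 replicate 2 and -0.021 after quantile normalization. Of the 4, the second and the lowest were positive without F3 replicate 1, and the second also without C2 replicate 2.

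GDF15 ranked 3 from the most positive of the 1259 changes. The log2 change was 0.35 (SE 0.11, n = 3 in each population), a size of 1.27-fold. Its adjusted p in limma was 0.84, and 0.52 with the block, which raised the SE to 0.12. The differences in the same-numbered pairs were 0.072, 0.72 and 0.26, and the second pair was the largest. Without F3 replicate 2 the change was 0.22.

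Among the ERBB receptors, the 2 probe sets of ERBB3 differed. The one at the lower level read 6.05, 6.28 and 5.90 in C2 and 5.74, 6.01 and 5.83 in F3. Its change was -0.22 (SE 0.10, n = 3 in each population, limma adjusted p = 0.97), and -0.11 without C2 replicate 2. With the block limma gave it an adjusted p of 0.52. The one at the higher level read 6.37, 6.39 and 6.42 in C2 and 6.36, 6.43 and 6.36 in F3, a change of -0.013 (95% interval -0.13 to 0.10). The identifiers carry different RefSeq transcripts of the gene, and which transcripts each probe set measures was not tested. ERBB4 read 2.86, 2.81 and 2.66 in C2 and 2.70, 2.80 and 2.77 in F3, a change of -0.024 with overlapping arrays.

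The EGF-family ligands had 6 of 6 changes negative, against 688 of 1259 in the table. They ran from -0.12 for AREG and EGF to -0.00047 for BTC, with none past the test. After median centring 2 of the 6 were positive, against 702 of 1259. Under quantile normalization all 6 stayed negative, against 605 of 1259. AREG, amphiregulin, an epithelial ligand, read 3.36, 3.34 and 3.07 in C2 and 3.05, 3.18 and 3.16 in F3. The 3 NRG1 probe sets were at -0.0078, -0.018 and -0.12, in order of level. They measure 1 gene, so the 6 probe sets stand for 4 genes. No gene of this family had arrays that separated the populations.

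For the IGF system, IGF2, a fetal growth factor that acts through IGF1R, read 5.79, 5.80 and 5.87 in C2 and 5.91, 5.94 and 5.94 in F3. The F3 arrays were all higher, by a change of only 0.11 (SE 0.051, n = 3 in each population, limma adjusted p = 0.97, or 0.66 with the block). Whether this probe set also binds INS-IGF2 readthrough transcripts was not tested. IGF1R read 6.29, 6.57 and 6.25 in C2 and 6.13, 6.27 and 6.33 in F3, a change of -0.13 (95% interval -0.34 to 0.083), which was -0.031 without C2 replicate 2. IGF1 was at 0.0052.

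In the VEGF and PDGF systems, no probe set had arrays that separated the populations. VEGFA, the main growth factor of blood vessels, read 7.80, 8.04 and 8.02 in C2 and 7.59, 7.83 and 8.01 in F3, a change of -0.14 (95% interval -0.39 to 0.11) with the first array low in both populations. It was -0.035 without F3 replicate 1 and -0.087 after quantile normalization. VEGFB, VEGFC and VEGFD were at -0.078, -0.10 and 0.12, but VEGFB turned to 0.059 without C2 replicate 2 and VEGFD was at 0.045 without F3 replicate 2. VEGFC, a lymphatic growth factor, read 4.61, 4.73 and 4.63 in C2 and 4.55, 4.46 and 4.65 in F3, and its change was -0.055 without F3 replicate 2. FLT1 read 4.25, 4.35 and 4.45 in C2 and 4.41, 4.34 and 4.32 in F3, a change of 0.0068 that turned negative under quantile normalization.

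Among the PDGF genes, PDGFA, PDGFB, PDGFC and PDGFD were at -0.10, 0.075, 0.035 and 0.0017. PDGFA differed by 0.039, -0.37 and 0.034 in the same-numbered pairs and was at 0.022 without C2 replicate 2. PDGFC turned to -0.0063 without F3 replicate 3, PDGFD turned to -0.034 without F3 replicate 2, and PDGFB was at 0.028 without F3 replicate 2. PDGFRA read 3.70, 3.42 and 3.42 in C2 and 3.50, 3.57 and 3.46 in F3, a change of -0.0034 that turned positive after median centring. PDGFRB read 4.14, 4.35 and 4.08 in C2 and 4.03, 4.16 and 4.11 in F3, a change of -0.091 that was -0.014 without C2 replicate 2. Both receptors mark mesenchymal cells, and both had overlapping arrays.

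The remaining members act mainly on blood, nerve and germ cells. CSF1R, the macrophage growth factor receptor, read 5.31, 5.27 and 5.28 in C2 and 5.34, 5.59 and 5.30 in F3; its change of 0.13 was 0.035 without F3 replicate 2, the only array that stood apart. CSF3R, the granulocyte growth factor receptor, read 5.89, 5.74 and 5.74 in C2 and 5.69, 5.81 and 5.62 in F3 by its higher probe set, a change of -0.082 with overlapping arrays. Its lower probe set was at -0.066, with all F3 arrays below those of C2, though the nearest values were 5.374 in F3 and 5.376 in C2.

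EPOR, the erythropoietin receptor, gave 0.15 and 0.0025 in its 2 probe sets. The lower one read 5.66, 5.69 and 5.43 in C2 and 5.68, 5.78 and 5.78 in F3, and its change was 0.072 without C2 replicate 3. The higher one read 6.87, 6.96 and 6.95 in C2 and 6.94, 6.98 and 6.86 in F3. BDNF, a ligand of the neurotrophin receptors, read 3.75, 3.71 and 3.70 in C2 and 3.47, 3.70 and 3.63 in F3, with 1 value of each population equal to 2 decimals; its change of -0.12 was -0.055 without F3 replicate 1. KITLG was at 0.043 and CSF2 at -0.028.

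**Figure D4:**
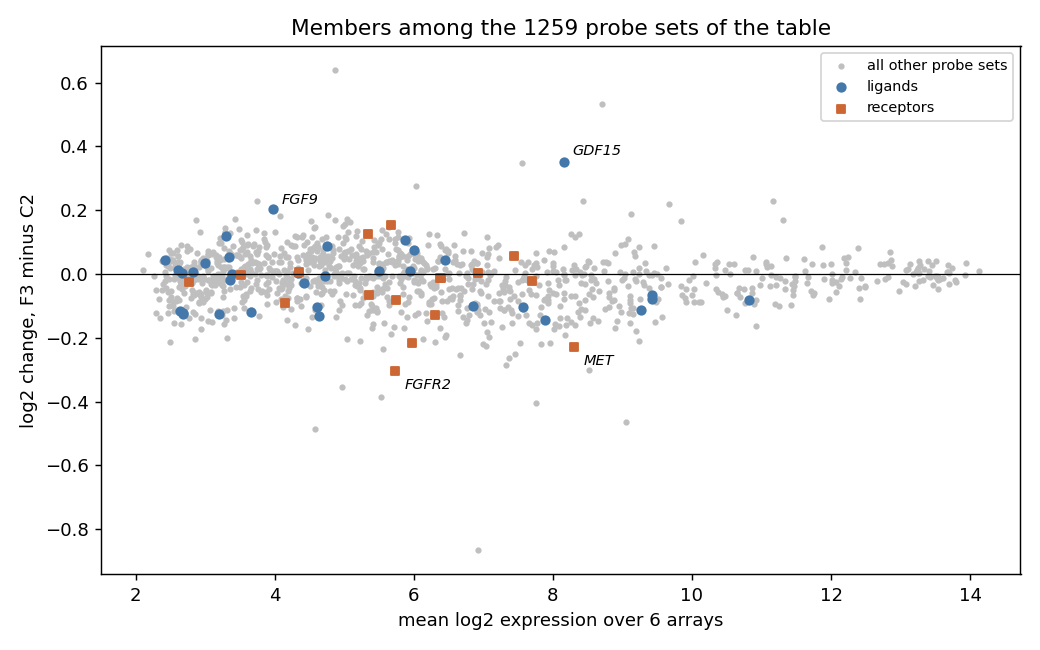
Log2 change, F3 minus C2 (vertical axis), against mean log2 expression over the 6 arrays (horizontal axis) for the 1259 probe sets, with member ligands as blue circles and member receptors as orange squares. Most members lie within the grey cloud of the other probe sets, and GDF15, with 0.35, and FGFR2, with -0.30, lie at its edge.

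Other genes of these pathways, taken from a list of 84 that holds no member, were measured for 33 genes with 37 probe sets. None passed the test in either direction, 19 changes were positive and 18 negative, and their median was 0.0011. IGF2R, which clears IGF2 and carries mannose-6-phosphate proteins, had the smallest p, with 9.14, 9.52 and 9.21 in C2 and 8.70, 8.88 and 8.89 in F3, a change of -0.46 (limma adjusted p = 0.36). Next came the heparin-binding growth factor PTN at -0.15, the receptor tyrosine kinase MST1R, a relative of MET, at -0.20, and FGF8 at -0.12. The F3 arrays were all below those of C2 for IGF2R, PTN and MST1R and overlapped for FGF8. These genes were picked by their p, so separation among them was largely built in. Over the 37 probe sets of the list, 4 did not overlap, or 10.8%, against 10.3% of the table. The separation of PTN holds for its probe set with the smaller p, and the other one was at -0.042 with overlapping arrays. The change of MST1R was -0.11 without C2 replicate 2.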

How the data were processed

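Total RNA was extracted with Trizol and labelled as biotinylated cRNA for Affymetrix arrays, per the labels' protocols. The deposited values are log2 expression, 1 per probe set and array, made with RMA per the submitters' processing notes; the sources used here name no version or probe set definition. RMA makes array distributions alike and compresses changes of dim probe sets. Of 1259 probe sets, 1043 matched 1 gene symbol in the RefSeq table (GRCh38.p14).

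F3 was compared with C2 by limma 3.58.1 in R 4.3.3 (lmFit, eBayes, two-sided, Benjamini-Hochberg over all probe sets), without a block. The script was tested only on simulated data without pairing and with changes larger than that of any member. Same-numbered arrays share a label suffix. Their deviations from the population means correlated with r = 0.52, 0.18 and 0.26, which was taken as pairing. C2 replicate 2 and F3 replicate 3 correlated with r = 0.15. The planned fit leaves this pairing out, and SEs and intervals come from that fit unless the block is named.

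Members, lists and tests were chosen with earlier results of these data known. By rule, values per array were given for the 12 genes with the smallest p and the highest probe set of each receptor, and the 4 smallest p among other pathway genes were named. HGF, AREG and VEGFA were added after their values were seen. Alternatives were centring on the median, quantile normalization, leaving out dim probe sets, a trend with robust eBayes, array weights, the replicate block, each array left out, genes in place of probe sets, no _x_at probe sets, a threshold of 0.10 and an ordinary two-sample test. The number of arrays limits the precision.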

Additional observations from a re-analysis of the deposited data

How the results depend on the processing

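No member probe set passed an adjusted p of 0.05 under any alternative run, at 0.10 included. The number of probe sets past the threshold in the whole table was 1 in the planned fit, 2 with the replicate block, 2 at an adjusted p under 0.10, 0 in the ordinary two-sample test and 0 to 2 with single arrays left out. The block changed no member's call. Left-out arrays moved the median change of the members between -0.043 and 0.0056. They moved the number of non-overlapping member probe sets between 8 and 17, or 15.7% and 33.3%, against 17.6% to 21.0% of the table. A population of 2 arrays overlaps less often by construction.

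Over all 51 member probe sets, 24 turned sign when some single array was left out. Of the 27 named member probe sets examined under each alternative, 18 kept their direction throughout and 9 did not; for these the cause was not tested. Median centring gave 0.0026 for the higher ERBB3 probe set, 0.0017 for FGFR1 and 0.012 for PDGFRA. Quantile normalization gave 0.016 for that ERBB3 probe set, 0.010 for FGFR1, 0.039 for FGFR3 and -0.0051 for FLT1. Array weights gave 0.0067 for FGFR1, 0.0078 for FGFR3, -0.0039 for FLT1 and 0.00085 for PDGFRA. With single arrays left out, the higher ERBB3 probe set ran from -0.035 to 0.00094, ERBB4 from -0.080 to 0.018, FGFR1 from -0.043 to 0.039, FGFR3 from -0.082 to 0.091, FLT1 from -0.044 to 0.057, PDGFRA from -0.051 to 0.090, the higher EPOR probe set from -0.028 to 0.037, the second HGF probe set from -0.17 to 0.033 and the lowest from -0.16 to 0.0088.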
